A study of Homo sapiens with 12 samples.

Results

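The 9 genes described here encode double-stranded RNA binding proteins and were followed through control and PACT-depleted cells of 2 triple-negative breast cancer lines. They are PRKRA, which encodes PACT, and TARBP2, DICER1, ADAR, ADARB1, STAU1, STAU2, DHX9 and STRBP. They were chosen by gene name from the 57500 genes of the deposited count table, and all 9 passed the filter on low counts, as did 27029 genes in all.

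HCC1806 and MDA-MB-468 are established lines grown from triple-negative breast cancers, and each carried either a control guide or the PRKRA guide sgPACT-2 for CRISPR-Cas9. Control cells of HCC1806 carried the guide sgC1, control cells of MDA-MB-468 the guide sgNTA, and depleted cells of both lines the same sgPACT-2. The control guide and the line therefore cannot be told apart when control cells, or the depletion effects of the lines, are compared. The 12 libraries, 3 for each of 4 groups, were made from DNase-treated total RNA depleted of ribosomal RNA. Whether a group was a pool of edited cells or a clone, and when the cells were harvested, are not given in the sources used here. Nothing in the labels says that the 3 libraries of a group came from separate cultures, so each p-value measures only the spread between these samples.

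Proteins with a double-stranded RNA binding domain recognise the shape of an RNA duplex rather than its sequence, so one duplex can be bound by several of them. PACT and its paralog TRBP, the product of TARBP2, both bind Dicer and both bind PKR, the kinase encoded by EIF2AK2 that double-stranded RNA activates and that phosphorylates eIF2alpha. The series title names PACT as a brake on PKR and as a treatment target in these cancers. The comparisons ask how far PRKRA RNA fell, whether RNA of the other genes moved with it, and how the lines differed before depletion.

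The PRKRA locus is shown first because the gene shares its start with a gene on the other strand. PRKRA (ENSG00000180228) lies at chr2:178431414-178451512 on the minus strand of GRCh38. These bounds are from GENCODE, in which PJVK, on the plus strand, starts at position 178451346, within the bounds of PRKRA. The promoter window of PRKRA shown here is set on its most upstream RefSeq start, 178451175. The PJVK start lies inside that window, 171 bases upstream of the RefSeq start. The windows of PRKRA (chr2:178451126-178451425, minus strand) and of its paralog TARBP2 (chr12:53500673-53500972, plus strand) are from RefSeq on GRCh38.p14. Each runs 5′ to 3′ from 250 bases before the start to 50 bases after it. Capitals mark the GC box GGGCGG on either strand.
PRKRA: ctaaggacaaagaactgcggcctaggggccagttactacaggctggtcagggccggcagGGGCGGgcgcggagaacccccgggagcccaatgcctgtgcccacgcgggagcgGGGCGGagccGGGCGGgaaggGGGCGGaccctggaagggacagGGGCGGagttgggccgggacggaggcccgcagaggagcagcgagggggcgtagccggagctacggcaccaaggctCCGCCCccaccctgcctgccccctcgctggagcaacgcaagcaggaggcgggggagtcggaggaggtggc
TARBP2: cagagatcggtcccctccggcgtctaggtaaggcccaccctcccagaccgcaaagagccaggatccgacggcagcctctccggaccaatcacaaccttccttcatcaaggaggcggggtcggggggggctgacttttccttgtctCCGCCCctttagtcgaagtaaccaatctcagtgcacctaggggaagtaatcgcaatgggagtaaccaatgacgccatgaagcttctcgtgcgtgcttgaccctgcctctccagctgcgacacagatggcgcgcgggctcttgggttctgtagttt

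The PRKRA window held 6 GC boxes and the TARBP2 window 1. These are the most upstream RefSeq windows of each gene. The further windows held 5 and 4 GC boxes for PRKRA and 2 and 0 for TARBP2. Of 35114 RefSeq windows of the same length, 45% held at least 1 GC box and 2.86% held at least 6. The PRKRA window shown was 73.7% G and C, against a median of 58.7% over all windows. The core of the interferon-stimulated response element (GAAA, any 2 bases, then GAAA) was found on neither strand of the 22 windows of 8 of the 9 genes, and 3.57% of all windows held it. The C/EBP-ATF response element, TGATGNAA, was in 0 of these 22 windows and in 3.62% of all windows. These are matches of letters and say nothing about binding in these cells.

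Library totals ran from 18640633 to 24704877 counts for HCC1806, and for MDA-MB-468, whose values thus rest on more reads, from 34581754 to 44790741. In HCC1806 libraries, 0.0787% to 0.0891% of counts fell on the 9 genes and 11.6% to 15.0% on mitochondrial genes. The corresponding shares in MDA-MB-468 were 0.122% to 0.133% and 6.31% to 8.90%. The epithelial markers EPCAM, CDH1, KRT8, KRT18 and KRT19 were present in every library. Of the receptors whose absence defines triple-negative cancers, PGR reached at most 9 counts in a library, but ERBB2 RNA was plainly present, with group means of 129 to 194 CPM (counts scaled to library size). ESR1 RNA stood at 18.6 to 24.2 CPM in the first line and 6.27 to 7.51 CPM in the second. Of the 5 markers of other cell types, PTPRC of leukocytes reached at most 19 counts, PECAM1 of endothelium 68, and COL1A2 and PDGFRB of fibroblasts 15 and 126. COL1A1, also a fibroblast marker, had means of 33.4 CPM in HCC1806 controls, 44.5 CPM after depletion, and 19.8 and 18.3 CPM in MDA-MB-468. Their part in the results was not tested. CPM are scaled between libraries by TMM, a factor that sets the bulk of genes equal.

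PRKRA RNA fell to 0.475 of its control level in HCC1806 and did not pass the test in MDA-MB-468. Control libraries of HCC1806 held 78.6, 82.6 and 72.1 CPM of PRKRA, and depleted libraries 37.5, 36.1 and 37.3 CPM. The groups did not overlap, and the depleted libraries lay close together: their mean was 36.9 ± 0.774 CPM, and that of the controls 77.8 ± 5.30 CPM (SD, n = 3 each). The log2 fold change was -1.07 (SE 0.102, 95% interval -1.29 to -0.86), with an adjusted p of 1.7e-05 in edgeR's quasi-likelihood test with Benjamini-Hochberg adjustment over all genes tested. In bulk RNA, loss of the transcript from some cells and a lower level in every cell cannot be told apart. The protein was not measured in these files, and an edited gene can keep its RNA while losing its protein.

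In MDA-MB-468 the same guide went with a smaller difference. Control libraries held 41.1, 45.9 and 46.9 CPM of PRKRA and depleted libraries 39.2, 35.5 and 41.6 CPM. One depleted library, at 41.6 CPM, lay above the lowest control, so the groups overlapped. The means were 44.7 ± 3.12 and 38.8 ± 3.09 CPM, and the log2 fold change was -0.20 (SE 0.101, 95% interval -0.42 to 0.0089, adjusted p = 0.958). That interval leaves out a fall of the size seen in HCC1806. After TMM scaling, PRKRA spanned 36.1 to 37.5 CPM over the depleted HCC1806 libraries. The depleted MDA-MB-468 libraries spanned 35.5 to 41.6 CPM, while the control libraries were well apart. This likeness after depletion rests on the scaling. The TMM factors of depleted HCC1806 libraries were 1.10, 1.15 and 1.21, those of depleted MDA-MB-468 libraries 0.889, 0.962 and 0.914. Without these factors the HCC1806 values would be higher and the MDA-MB-468 values lower. Depleted cells of the lines were not tested against each other.

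The depletion effects themselves differed between the lines for PRKRA. Each effect was taken against a different control guide, so line and control guide cannot be told apart here. The effect in MDA-MB-468 was 0.87 log2 units above that in HCC1806 (SE 0.143, 95% interval 0.57 to 1.17, edgeR adjusted p = 0.0198). PRKRA was the only one of the 9 genes to pass this test, which 0.122% of all genes passed, 0.0222% with the higher effect in MDA-MB-468. Without 1 library these 6 higher and 27 lower genes became 0 to 87 and 9 to 81. Leaving out single libraries ended the call in 7 of 12 cases, in which the adjusted p was at most 0.0931. Those libraries were control 2 and depleted 2 of HCC1806, all 3 controls of MDA-MB-468, and its depleted 1 and 3. The value itself stayed between 0.82 and 0.94.

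**Figure D1:**
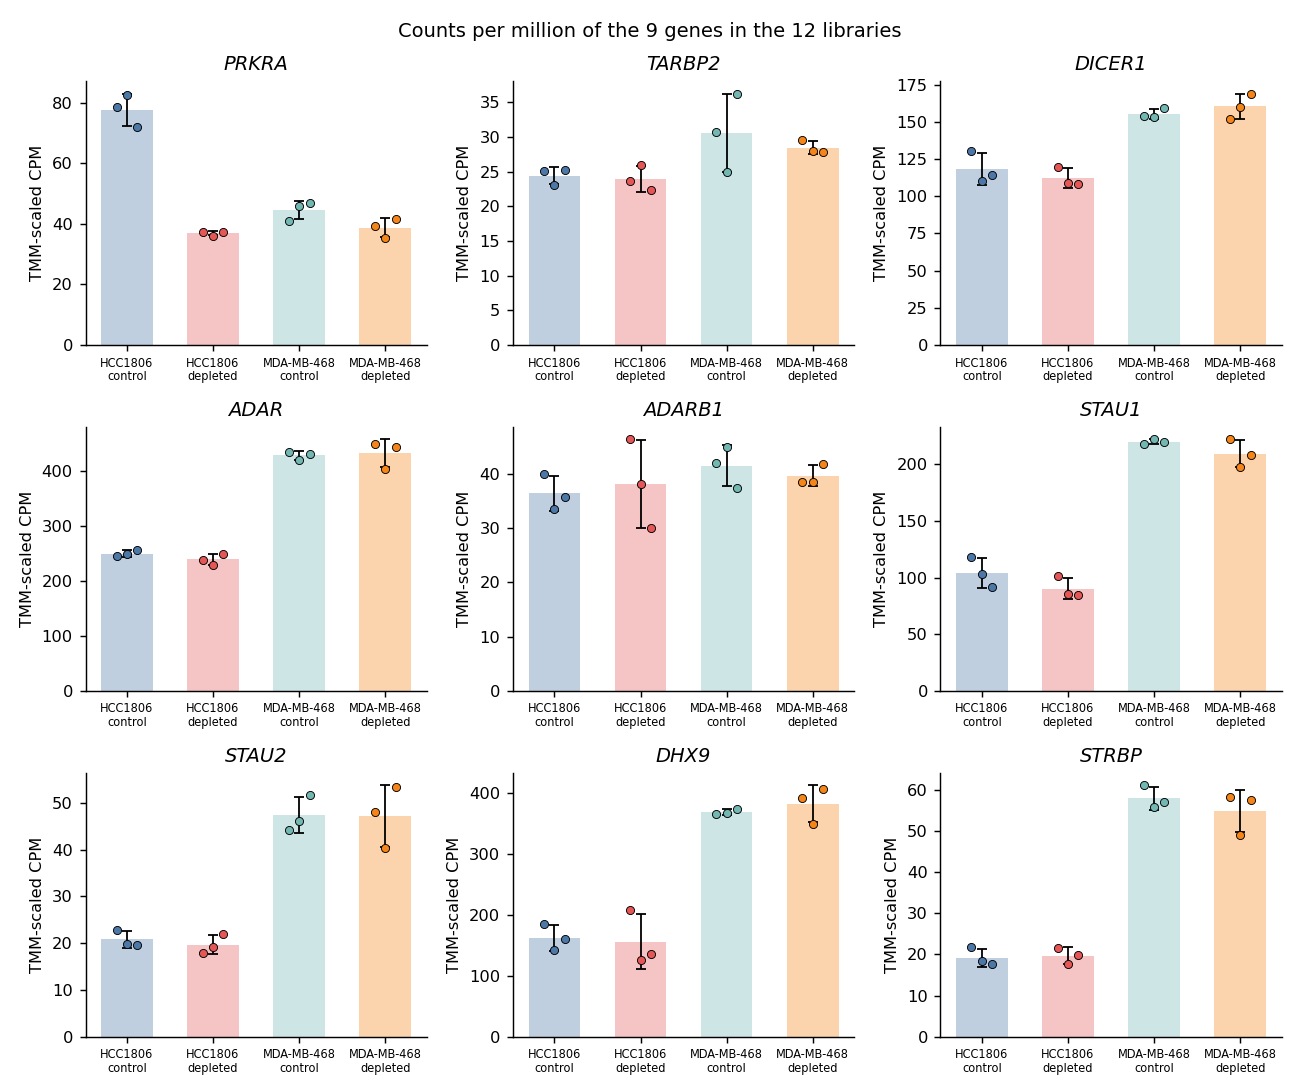
TMM-scaled CPM of the 9 genes, 1 panel per gene, in the 4 groups on the x axis. Points are the 3 libraries, bars their mean and whiskers 1 SD; PRKRA falls from 77.8 to 36.9 CPM in HCC1806, while each other gene has overlapping control and depleted libraries within a line.

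Among the 9 genes, PRKRA was the only one to change in HCC1806, where 2.49% of all genes tested passed in either direction, 1.16% higher and 1.32% lower. Those shares rest on single libraries: without HCC1806 control 1, 179 genes were higher and 122 lower, and without depleted 1, 597 and 1195. The libraries of control and depleted cells were separate for 1 of the 9 genes, PRKRA, against 16.7% of all genes. The other 8 had log2 fold changes from -0.21 to 0.065, with 95% intervals that lay between -0.43 and 0.35. In MDA-MB-468, 0 of the 9 genes passed edgeR's test, against 0.170% of all genes. At an unadjusted p under 0.05 the 9 genes likewise gave 0, against 1424 of the 27029 genes tested, and in DESeq2 0, where 100 genes were higher and 11 lower. Control and depleted libraries overlapped for all 9 genes in that line, and 13.1% of all genes were separate. In HCC1806 the 9 genes had a median log2 fold change of -0.062, beside 0.0078 over all genes, and in MDA-MB-468 one of -0.065, beside -0.0051.

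TARBP2 (ENSG00000139546, chr12:53500921-53506431, plus strand) encodes TRBP, the paralog that shares both Dicer and PKR as partners with PACT. Its RNA stood at 25.1, 23.0 and 25.2 CPM in HCC1806 controls and 23.7, 26.0 and 22.3 CPM in depleted libraries. The groups overlapped throughout, and the log2 fold change was -0.027 (95% interval -0.30 to 0.25). In MDA-MB-468 the controls held 30.7, 24.9 and 36.2 CPM and the depleted libraries 29.6, 28.0 and 27.8 CPM. The controls were the more spread of the groups, and the log2 fold change was -0.11 (-0.37 to 0.16). Neither interval holds a rise of TARBP2 RNA as large as the fall of PRKRA in HCC1806.

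DICER1 (ENSG00000100697, chr14:95086228-95158010, minus strand) encodes the ribonuclease that cuts microRNA precursors and long duplexes. It was measured at 130.4, 110.4 and 114 CPM in HCC1806 controls and 119.7, 109 and 108 CPM in depleted libraries. The highest control stood apart from the other controls, and the groups overlapped, with a log2 fold change of -0.073 (95% interval -0.27 to 0.13). MDA-MB-468 held 154, 153 and 159 CPM in controls and 152, 160.3 and 169 CPM in depleted libraries. Here the depleted libraries spanned the wider range and enclosed all controls (log2 fold change 0.049, -0.15 to 0.25).

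The ratio of PRKRA to its partners within a library does not depend on scaling between libraries. Per kilobase of exon, PRKRA over TARBP2 was 3.32 ± 0.383 in HCC1806 controls against 1.61 ± 0.153 with sgPACT-2 (SD, n = 3 each). In MDA-MB-468 that ratio was 1.55 ± 0.315 and 1.41 ± 0.123, with overlapping libraries. The HCC1806 ratio gave an exact two-sided permutation p of 0.10, the smallest that 3 against 3 libraries allow, and the MDA-MB-468 ratio 0.600. PRKRA over DICER1 went from 2.06 ± 0.240 to 1.03 ± 0.0482 in HCC1806 and from 0.898 ± 0.0570 to 0.754 ± 0.0574 in MDA-MB-468. Control and depleted libraries were separate in both lines for this ratio (exact permutation p = 0.10 each). PRKRA made up 16.0% ± 1.38 of the summed CPM per kilobase of the 9 genes in HCC1806 controls and 8.81% ± 0.788 after depletion, and 5.36% ± 0.345 and 4.69% ± 0.149 in MDA-MB-468.

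**Figure D2:**
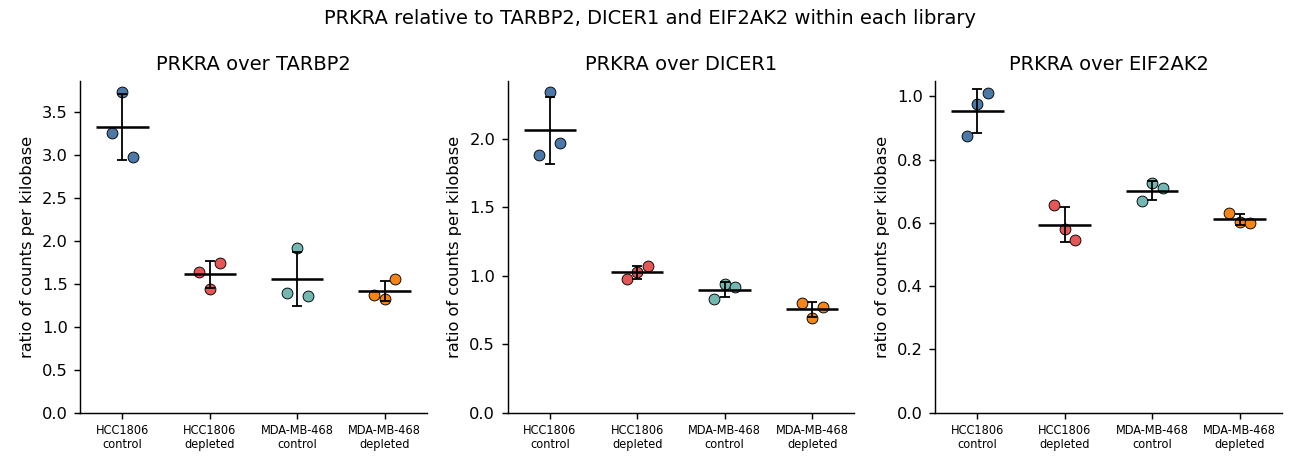
Ratio of PRKRA to TARBP2, DICER1 and EIF2AK2 in counts per kilobase of exon, 1 panel per ratio, by group on the x axis. Points are libraries, lines the mean and whiskers 1 SD; the HCC1806 controls lie above the other 9 libraries in each panel, with a mean PRKRA to TARBP2 ratio of 3.32 there and 1.41 to 1.61 elsewhere.

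ADAR and ADARB1 encode the adenosine deaminases that convert adenosine to inosine in duplex RNA. ADAR (ENSG00000160710, chr1:154582057-154628013, minus strand) held 245, 248 and 256 CPM in HCC1806 controls and 238, 229.6 and 249 CPM in depleted libraries. Its libraries were among the least spread, and the log2 fold change was -0.062 (95% interval -0.24 to 0.12). In MDA-MB-468 ADAR stood at 435, 419 and 431 CPM in controls and 449, 403 and 444 CPM in depleted libraries (0.013, -0.17 to 0.20). The depleted libraries lay on both sides of the controls.

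ADARB1 (ENSG00000197381, chr21:45073853-45226560, plus strand), the second active deaminase gene, was less abundant. HCC1806 controls held 40.0, 33.6 and 35.8 CPM and depleted libraries 46.4, 38.1 and 30.1 CPM. Depleted replicate 1 was the highest and depleted replicate 3 the lowest of the 6, so the log2 fold change of 0.065 (95% interval -0.22 to 0.35) is loosely fixed, and it was -0.10 without depleted replicate 1. MDA-MB-468 held 42.1, 45.0 and 37.5 CPM in controls and 38.6, 38.6 and 41.9 CPM in depleted libraries (-0.065, -0.35 to 0.22). Per kilobase, ADAR over ADARB1 was 7.13 ± 0.691 and 6.71 ± 1.67 in HCC1806 and 10.8 ± 1.13 and 11.3 ± 0.689 in MDA-MB-468 (control, then depleted; exact permutation p = 0.700 and 0.400).

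STAU1 and STAU2 encode the Staufen proteins, which bind duplexes in messenger RNA and act in RNA transport and decay. STAU1 (ENSG00000124214, chr20:49113339-49188367, minus strand) held 118, 103 and 91.5 CPM in HCC1806 controls and 101, 85.3 and 84.2 CPM in depleted libraries. After PRKRA it had the log2 fold change farthest from 0 in this line, -0.21 (95% interval -0.43 to 0.021), but an adjusted p of 0.413 in edgeR and overlapping groups. In MDA-MB-468 STAU1 stood at 218, 222 and 220.2 CPM in controls and 222, 198 and 208 CPM in depleted libraries (-0.071, -0.30 to 0.15). The controls agreed to within a few CPM, and 1 depleted library reached their level.

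STAU2 (ENSG00000040341, chr8:73420369-73747708, minus strand) was among the lowest of the 9 genes in HCC1806. Its controls there held 22.8, 19.9 and 19.7 CPM and its depleted libraries 18, 19.1 and 22.0 CPM (log2 fold change -0.080, 95% interval -0.35 to 0.19). MDA-MB-468 held 44.3, 46.1 and 51.7 CPM in controls and 48.0, 40.3 and 53.4 CPM in depleted libraries. The depleted libraries held both the lowest and the highest value, and the log2 fold change was -0.0041 (-0.26 to 0.25).

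DHX9 (ENSG00000135829, chr1:182839369-182887751, plus strand) encodes RNA helicase A, which unwinds duplex RNA, including that of inverted repeats. HCC1806 controls held 185, 142 and 159.9 CPM and depleted libraries 208, 125 and 135 CPM. Depleted replicate 1 was the highest of the 6 libraries and the other depleted libraries the lowest. The log2 fold change was -0.060 (95% interval -0.38 to 0.26), and -0.32 without that library. In MDA-MB-468 DHX9 stood at 366, 367 and 374 CPM in controls and 392, 349 and 407 CPM in depleted libraries (0.052, -0.27 to 0.37), the controls lying inside the range of the depleted libraries.

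STRBP (ENSG00000165209, chr9:123109500-123268576, minus strand) encodes spermatid perinuclear RNA binding protein, a relative of nuclear factor 90 with a DZF domain. It held 21.7, 18.4 and 17.6 CPM in HCC1806 controls and 21.6, 17.6 and 19.9 CPM in depleted libraries (log2 fold change 0.032, 95% interval -0.22 to 0.29). In MDA-MB-468 it held 61.2, 55.8 and 57.2 CPM in controls and 58.3, 49.0 and 57.5 CPM in depleted libraries (-0.080, -0.32 to 0.16). Depleted replicate 2 was the low one, and the rest lay within the range of the controls.

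**Figure D3:**
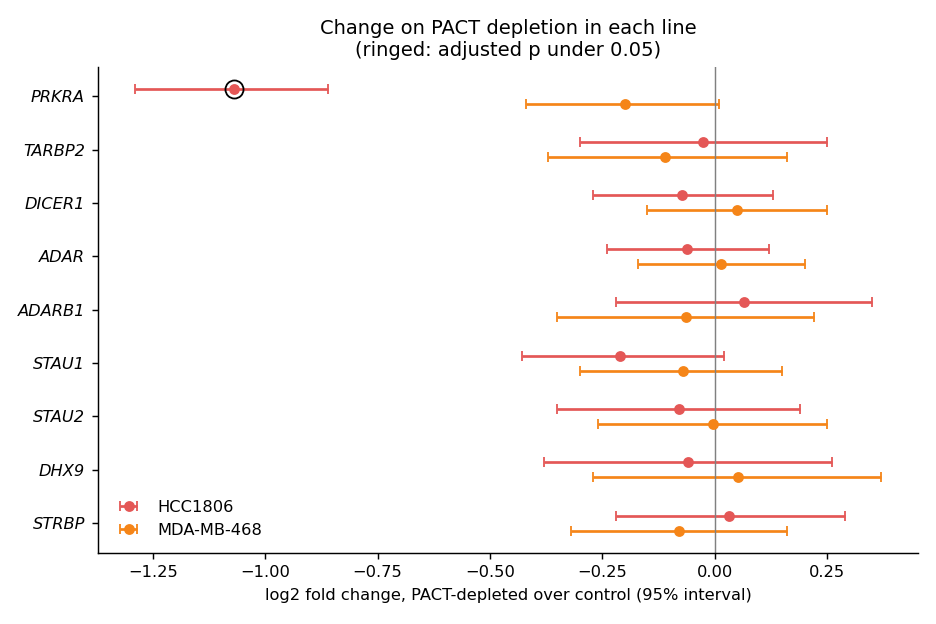
Log2 fold change of PACT-depleted over control cells on the x axis for each of the 9 genes, in HCC1806 (red) and MDA-MB-468 (orange). Points are edgeR estimates and bars 95% intervals; only PRKRA in HCC1806, at -1.07, is ringed as past an adjusted p of 0.05.

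Before depletion the lines differed in most of these genes, and PRKRA lay on the other side from the 7 others that passed. In control cells PRKRA was lower in MDA-MB-468 than in HCC1806, at 44.7 against 77.8 CPM (log2 fold change -0.80, SE 0.101, edgeR adjusted p = 1.6e-06). The genes ADAR, STAU1, STAU2, DHX9, STRBP, DICER1 and TARBP2 were higher in MDA-MB-468. In all, 8 of the 9 genes passed, 7 higher and 1 lower. Most of the transcriptome differed between the lines, with 74.2% of all genes passing, 34.2% higher and 40.1% lower, so the number that passed is close to the background.

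The sizes ran from 1.59 for STRBP down to 0.33 for TARBP2. STRBP, the gene with the widest gap, stood at 58.1 ± 2.77 CPM in MDA-MB-468 and 19.2 ± 2.16 CPM in HCC1806 (SD, n = 3 each). STAU2 was higher by 1.19 (SE 0.126), DHX9 by 1.18 (SE 0.154), STAU1 by 1.08 (SE 0.108) and ADAR by 0.78 (SE 0.0868) on the log2 scale, each with control libraries that did not overlap. DICER1 was higher by 0.39 (SE 0.0950) and TARBP2 by 0.33 (SE 0.128, edgeR adjusted p = 0.0289). ADARB1, at 0.19 (95% interval -0.10 to 0.47), did not pass. Control libraries of the lines were separate for 7 of the 9 genes, against 77.7% of all genes, and overlapped for TARBP2 and ADARB1.

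The smaller of these differences depended on the scaling between lines. Scaling by library size alone moved the log2 fold changes of all genes tested by a median of -0.25. Keeping only genes whose counts averaged 50 or more moved those of the 15918 genes kept by a median of -0.31. With these settings DICER1 came to 0.15 and 0.081 and TARBP2 to 0.078 and 0.014, and neither passed. ADARB1 changed sign to -0.060 and -0.12. TARBP2 also failed with RLE size factors, at 0.28 (edgeR adjusted p = 0.0550), in DESeq2, at 0.28 (adjusted p = 0.0568), and without MDA-MB-468 control 3, at 0.19, control 1, at 0.33, or HCC1806 control 2, at 0.31. PRKRA, ADAR, STAU1, STAU2, DHX9 and STRBP kept their direction and passed under each of these settings. The median over the 9 genes was 0.78, against -0.26 over all genes.

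**Figure D4:**
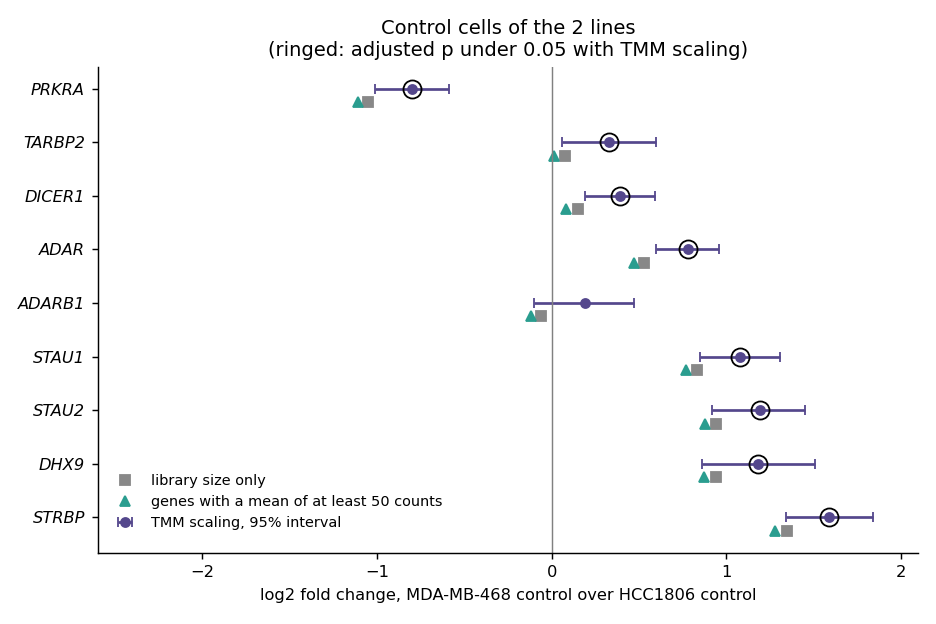
Log2 fold change of MDA-MB-468 control over HCC1806 control cells on the x axis for the 9 genes. Circles are edgeR estimates with TMM scaling and 95% intervals, ringed where the adjusted p is under 0.05, squares the estimates with library size only and triangles those over genes averaging 50 counts or more; PRKRA lies at -0.80 while STRBP lies at 1.59.

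Levels can be compared between genes only per length, here as CPM per kilobase of all annotated exons (RPKM). In HCC1806 controls DHX9 led at 28.8 RPKM, followed by ADAR at 25.7, STAU1 at 25.4, PRKRA at 19.7, DICER1 at 9.62, TARBP2 at 5.97, ADARB1 at 3.63, STRBP at 2.38 and STAU2 at 2.31 RPKM. The libraries of DHX9, ADAR and STAU1 overlapped from one neighbour to the next, as did those of STRBP and STAU2, and the other neighbours were separate. After depletion the order was the same, but PRKRA, at 9.37 RPKM, now overlapped with DICER1, at 9.15 RPKM.

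In MDA-MB-468 controls the order was DHX9 at 65.4 RPKM, STAU1 at 53.8, ADAR at 44.2, DICER1 at 12.6, PRKRA at 11.3, TARBP2 at 7.49, STRBP at 7.17, STAU2 at 5.27 and ADARB1 at 4.13 RPKM. Of these neighbours, only TARBP2 and STRBP overlapped, and the order was the same after depletion. PRKRA thus stood above DICER1 in HCC1806 controls and below it in MDA-MB-468 on this length. The ranks rest on the length used: with the longest transcript in place of all exons PRKRA, whose exons sum to 3941 bases but whose longest transcript has 1851, ranked first in HCC1806 controls. On that length it also stood above DICER1 in MDA-MB-468, at 24.1 against 15.0 RPKM in controls and 20.9 against 15.5 RPKM after depletion.

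Genes on the other strand overlap several of these genes, and the strand setting of the counting is not given in the sources used here, so their reads cannot be told apart. PRKRA shares 132 exon bases with PJVK and 85 with the antisense gene AC009948.1, which are 3.35% and 2.16% of its exon length. AC009948.1 had 29.9 ± 4.29 CPM in HCC1806 controls and 19.3 ± 1.64 CPM after depletion (log2 fold change -0.63, SE 0.176, edgeR adjusted p = 0.0694), and -0.41 (SE 0.196) in MDA-MB-468. PJVK had 14 to 88 counts in any HCC1806 library, with a log2 fold change of 0.56 (SE 0.447). DICER1 shares 80 exon bases with DICER1-AS1, ADARB1 shares 51 with SSR4P1 and TARBP2 shares 16 with AC023509.4. STAU2 shares 302 exon bases with AC022826.2, and STRBP shares 254 with MIR600HG, in both cases on the same strand. ADAR and DHX9 overlap no annotated gene, and STAU1 shares no exon base with another gene. Whether reads that fit near-identical copies elsewhere were counted is likewise not given in the sources used here.

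The 3 nearest genes on each side of PRKRA that averaged 50 counts or more had log2 fold changes below 0 in HCC1806 without passing the test. The values were -0.49 for TTC30A, -0.38 for RBM45, -0.54 for OSBPL6, -0.82 for FKBP7, -0.18 for PLEKHA3 and -0.51 for TTN-AS1. All 6 lay below 0, with a median of -0.50, beside 0.0078 over all genes, whose median absolute change was 0.23. Of the 6, 0 passed edgeR's test, against 2.49% of all genes, and the smallest adjusted p was 0.0710, for FKBP7. The median of the 6 came to -0.37 with library size only and -0.36 without HCC1806 control 1. In MDA-MB-468 3 of the 6 lay below 0, with a median of -0.055 and a range of -0.22 to 0.33. TTC30A, a gene of cilium transport, was there at 12.5 CPM in controls and 15.8 CPM in depleted libraries. Their part in the PRKRA values was not tested.

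The genes whose profile over the 12 libraries was most like that of PRKRA were C1QTNF6, PCBD1, TMEM19, UGDH and TRIM59. Likeness was the root mean square difference of log2 CPM, each gene centred on its own mean, over 15917 genes that averaged 50 counts or more. It was 0.193 for C1QTNF6, 0.202 for PCBD1, 0.208 for TMEM19, 0.220 for UGDH and 0.221 for TRIM59. C1QTNF6, a secreted protein of the C1q and TNF-related family, went from 51.4 to 32.5 CPM in HCC1806 and from 32.5 to 31.6 CPM in MDA-MB-468. UGDH, which makes UDP-glucuronate, went from 59.8 to 41.7 CPM and from 41.6 to 41.4 CPM. None of the other 8 genes was near PRKRA by this measure: ADARB1 came closest at 0.500, rank 3183, and STRBP was last at 1.04, rank 11027.

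PKR itself, EIF2AK2, had lower RNA in depleted HCC1806 libraries without passing the test. Controls held 245, 231 and 195 CPM and depleted libraries 156, 169 and 186 CPM. The groups did not overlap, and the log2 fold change was -0.39 (SE 0.107, 95% interval -0.62 to -0.17), with an adjusted p of 0.0664 in edgeR. It passed with the replicate number as a block (adjusted p = 0.0194), in DESeq2 (0.0177), with no filter on low counts (0.0283), and without control 3 (0.0313) or depleted 3 (0.0390); over the fits without 1 library the adjusted p ranged from 0.0313 to 0.205. In MDA-MB-468 EIF2AK2 held 168, 172 and 180.5 CPM in controls and 169, 161 and 189 CPM in depleted libraries, with a log2 fold change of -0.0032. The difference between these effects, 0.39 (SE 0.151), had an adjusted p of 0.482. PRKRA over EIF2AK2 per kilobase was 0.954 ± 0.0691 and 0.595 ± 0.0556 in HCC1806, and 0.702 ± 0.0297 and 0.611 ± 0.0179 in MDA-MB-468 (exact permutation p = 0.10 each).

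Of the 12 tested genes for other proteins with a double-stranded RNA binding domain, 0 passed in either line. Of all genes, 2.49% passed in HCC1806 and 0.170% in MDA-MB-468, so 0 is close to the background. Their median log2 fold change in HCC1806 was -0.052, that in MDA-MB-468 -0.0053. Beside EIF2AK2, CDKN2AIP had 6.89 CPM in HCC1806 controls and 11.2 CPM after depletion (0.70, SE 0.195, edgeR adjusted p = 0.0698). Both passed with the replicate number as a block, CDKN2AIP with an adjusted p of 0.01. CDKN2AIP also passed in DESeq2 (0.0282), with library size only (0.0226), with no filter (0.00552), with the minimum average of 50 counts (0.0430), and without control 1 (0.0270) or depleted 2 (0.0397). Over the fits without 1 library its adjusted p ranged from 0.0270 to 0.214. In MDA-MB-468, where 0 of the 12 had an unadjusted p under 0.05, MRPL44, a mitochondrial ribosome protein, had a log2 fold change of 0.18. ADAD2, at 0.0176 CPM in controls and listed at 0 in depleted libraries there, was too low for a fold change.

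Of the 18 tested genes that make and use small RNAs with Dicer, 1 passed in HCC1806, where 2.49% of all genes passed. With library size only 3 passed, and with HCC1806 alone 0. TNRC6C, a scaffold of the silencing complex, rose in HCC1806. Its controls held 4.67, 7.25 and 5.68 CPM and its depleted libraries 9.16, 9.23 and 11.9 CPM. The groups did not overlap, and the log2 fold change was 0.79 (SE 0.152, edgeR adjusted p = 0.0111). It did not pass without control 1 (0.64, adjusted p = 0.0550) or with HCC1806 fitted alone (adjusted p = 0.194). In MDA-MB-468 0 of the 18 passed, against 0.170% of all genes. Smallest in unadjusted p were TSN and TNRC6A, with log2 fold changes of 0.15 and 0.11.

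Of 15 tested sensors of double-stranded RNA and PKR regulators, 2 rose in HCC1806, DDX58 and OASL, and 0 fell, where 1.16% of all genes rose and 1.32% fell. DDX58, which encodes RIG-I, held 18.8, 17.3 and 16.7 CPM in controls and 31.9, 26.9 and 31.5 CPM in depleted libraries. Its log2 fold change was 0.77 (SE 0.128, edgeR adjusted p = 0.00408), and the groups were well apart. OASL, an oligoadenylate synthetase-like protein that acts with RIG-I, went from 1.28 ± 0.221 to 5.56 ± 0.789 CPM (2.11, SE 0.354, adjusted p = 0.00419). Both passed with HCC1806 fitted alone. The other 13 did not pass, 9 of the 15 lay below 0, and the list's median log2 fold change was -0.0067, beside 0.0078 over all genes. In MDA-MB-468 0 of the 15 passed, against 0.170% of all genes. There IFIH1, the sensor MDA5, came to 0.21 and DDX58 to -0.20. DDX58 differed between the lines by -0.97 (SE 0.183, adjusted p = 0.0489), a call lost on leaving out any of 11 of the 12 libraries, the exception being HCC1806 depleted 1, and with RLE size factors (adjusted p = 0.0569).

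Of 26 interferon-stimulated genes, RSAD2 and IRF7 rose in HCC1806 and 0 fell, where 1.16% of all genes rose and 1.32% fell. The number that passed ran from 0 to 4 over the other settings and over the fits without 1 library. RSAD2, the antiviral protein viperin, was near the limit of detection, at 4, 7 and 9 counts in controls and 17, 26 and 46 in depleted libraries (log2 fold change 2.03, SE 0.393, edgeR adjusted p = 0.0115). IRF7, a transcription factor of the interferon response, went from 13.1 ± 1.74 to 19.0 ± 0.768 CPM (0.54, SE 0.126, adjusted p = 0.0301). RSAD2 did not pass without control 1 (1.74, adjusted p = 0.0573), and IRF7 lost its call in 7 of 12 fits with a library removed: control 1 or 2 or depleted 2 or 3 of HCC1806, or any control of MDA-MB-468. With HCC1806 alone their adjusted p were 0.164 and 0.196. MX1, an antiviral GTPase, did not pass the main test (0.40, SE 0.111, edgeR adjusted p = 0.0666). It passed in the fit with replicate blocks (0.40, adjusted p = 0.0147), in DESeq2 (0.0225) and with library size only (0.0286). It also passed with the minimum average of 50 counts (0.0298) and without HCC1806 depleted 1 (0.0135). Over the fits without 1 library the adjusted p of MX1 ranged from 0.0135 to 0.219. In HCC1806 15 of the 26 lay above 0 and 11 below. Among those below were IFIT1, at -0.38, and BST2, at -0.31, which did not pass. The list's median in HCC1806 was 0.11, beside 0.0078 over all genes, and in MDA-MB-468 it was -0.032. There 0 of the 26 passed, against 0.170% of all genes, with IFIT1 at -0.50 and BST2 at -0.36.

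Staufen-mediated and nonsense-mediated decay shares the helicase UPF1, and 0 of its 15 listed genes passed in either line. This is close to the background, as 2.49% of all genes passed in HCC1806 and 0.170% in MDA-MB-468. UPF3B went from 7.78 to 10.1 CPM in HCC1806 (0.39, SE 0.124, edgeR adjusted p = 0.122) and SMG6 from 62.9 to 77.7 CPM (0.30, SE 0.112, adjusted p = 0.189). UPF3B passed with library size only (0.0417) and without HCC1806 depleted 1 (0.0314). In MDA-MB-468 RBM8A came to -0.12 and UPF1 to -0.098. The 4 tested genes of the DZF group, which holds STRBP itself, likewise had 0 that passed, beside those shares of all genes. ILF2, the partner of nuclear factor 90, came to -0.26 in HCC1806, passing only without depleted 1 (-0.39, adjusted p = 0.0397), and ZFR to 0.16, and ZFR to 0.063 in MDA-MB-468.

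Host transcripts of microRNAs, whose products Dicer matures, held 1 gene in 20 that changed in HCC1806, where 2.49% of all genes passed. MIR205HG fell in HCC1806, from 2652, 2327 and 1983 CPM in controls to 1511, 1634 and 1230.4 CPM in depleted libraries. The groups did not overlap (log2 fold change -0.67, SE 0.128, edgeR adjusted p = 0.0106), and the call was lost with HCC1806 fitted alone (adjusted p = 0.138). The arm most used of the microRNA in this host is given from RefSeq (GRCh38.p14, chr1:209432166-209432187, plus strand) with its seed, bases 2 to 8, in capitals, because it names the product that the host transcript stands for.
hsa-miR-205-5p: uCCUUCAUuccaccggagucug

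The mature microRNA was not measured in these libraries. As a block, the replicate number brought the host transcripts that passed in HCC1806 to 3, adding MIR22HG (0.79, adjusted p = 0.0175) and MIR29B2CHG (0.39, adjusted p = 0.0334). MIR22HG also passed in edgeR with no filter on low counts (0.84, adjusted p = 0.00137) and without HCC1806 depleted 2 (1.09, adjusted p = 0.0448). Without 1 library its value ranged from 0.37 to 1.09 and its adjusted p from 0.0448 to 0.366. In MDA-MB-468 MIR205HG was less abundant, at 201 ± 16.5 CPM in controls and 173 ± 19.5 CPM after depletion. There 0 of the 20 passed, against 0.170% of all genes. Smallest in unadjusted p were MIR181A2HG (log2 fold change 0.86, edgeR adjusted p = 0.722) and MIR4435-2HG (log2 fold change 0.21). The median of the 20 in HCC1806 was 0.0046, that in MDA-MB-468 -0.12.

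**Figure D5:**
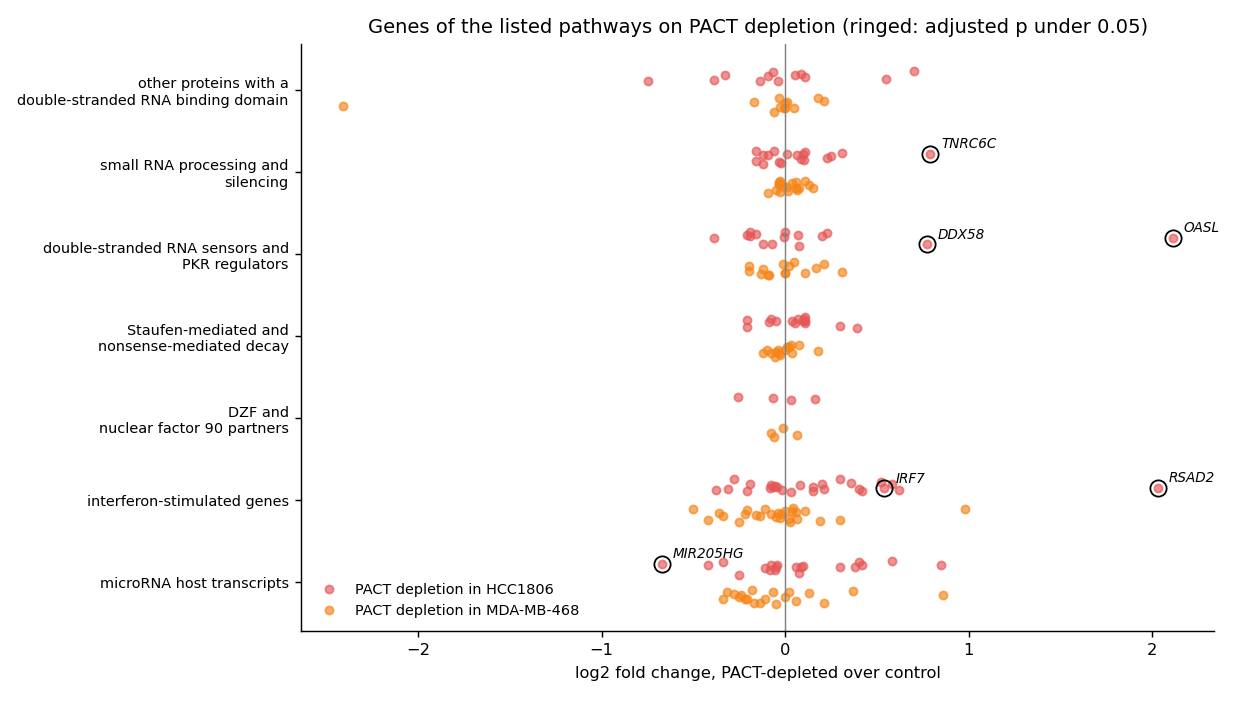
Log2 fold change on PACT depletion on the x axis for the tested genes of the 7 lists (rows), in HCC1806 (red) and MDA-MB-468 (orange). Each point is a gene and rings mark an adjusted p under 0.05; 6 genes are ringed, all in HCC1806: TNRC6C, DDX58, OASL, IRF7 and RSAD2 to the right of 0 and MIR205HG to the left. The orange point farthest left is ADAD2, too low for a fold change.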

How the data were processed

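RNA of 12 libraries was compared, 3 in each of 4 groups taken from the sample titles. The deposited table holds whole-number read counts per Ensembl gene with no normalization. Trimmomatic 0.36, STAR 2.5.2b, featureCounts, Subread 1.5.2 and the build GRCh38 are named in the submitters' processing notes; the strand setting and annotation release are not given in the sources used here. Genes with no name held 0.0284% of counts.

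Gene positions and exon lengths came from GENCODE 29, which matched 56898 of the 57500 gene identifiers. Genes were tested with edgeR 4.0.16 in R 4.3.3 (TMM scaling, filterByExpr on the 4 groups, glmQLFit and glmQLFTest, two-sided, 1 coefficient per group, all 12 libraries), on the 27029 genes that passed the filter, of 44375 with any count. Benjamini-Hochberg adjustment covered these 27029 genes, with a threshold of 0.05. Intervals are 95% and come from the model's SE and each gene's total degrees of freedom in the test (median 17.0, range 11.0 to 17.0). The biological coefficient of variation was 0.171, and 0.204 and 0.0936 when HCC1806 and MDA-MB-468 were fitted alone. The steps were tested on simulated data. Figures were drawn with matplotlib 3.10.9.

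The 9 genes and the 7 gene lists were chosen with earlier results of these data known. Named besides the 9 were EIF2AK2, of each list the genes that passed (at most 5) or else the 2 with the smallest unadjusted p in each line, genes overlapping or next to PRKRA, and the 5 most like it. MX1, MIR22HG and MIR29B2CHG are named because the replicate block changed their call. The result of 1 further gene is not reported here. ADAD1, ZBP1 and ZFR2 had too few counts, and MIR23AHG, MIR924HG and MIRLET7A1HG were not analysed here.

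Replicate numbers come from the titles. Deviations of same-numbered control and depleted libraries from their group means correlated at 0.479, 0.294 and 0.152 in HCC1806. Those of control 2 and depleted 3 correlated at 0.351, so the numbers do not clearly pair these libraries. The main tests had no block, and blocked values are given where they change a call. Alternatives tried were DESeq2 1.42.0, RLE size factors, library size only, no filter, a minimum average of 50 counts, each line alone, the replicate block, a threshold of 0.01, the longest transcript as length, and leaving out each library.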

Additional observations from a re-analysis of the deposited data

Results flagged for a closer look

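The effect of PACT depletion on PRKRA differed between the cell lines by the test of the difference itself: the effect in MDA-MB-468 was 0.87 log2 units above that in HCC1806 (SE 0.143, edgeR adjusted p = 0.0198), with 3 of 3 depleted libraries below all controls in HCC1806 and overlapping groups in MDA-MB-468. This call was lost on leaving out any of 7 of the 12 libraries. DDX58 (RIG-I) differed in the opposite direction, by -0.97 (SE 0.183, edgeR adjusted p = 0.0489), with 3 of 3 depleted libraries above all controls in HCC1806. That call was lost on leaving out any of 11 of the 12 libraries and with RLE size factors (adjusted p = 0.0569). For both genes the effects were taken against different control guides, so line and control guide cannot be told apart.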

How the results depend on the processing

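PRKRA in HCC1806 passed under every alternative and without each library in turn (-1.13 to -0.95), and in MDA-MB-468 it passed under none. Its difference between lines failed at an adjusted p of 0.01, which left 0 of the 9 genes; without 1 library it ranged from 0.82 to 0.94 and from 0 to 1 genes passed. With the longest transcript as length, 1, 5, 2 and 3 of the 9 genes kept their rank in HCC1806 controls, HCC1806 depleted, MDA-MB-468 controls and MDA-MB-468 depleted. Values that changed sign were small ones that did not pass. In HCC1806 library size only moved the log2 fold changes of all genes tested by a median of 0.12. It gave TARBP2 0.097, DICER1 0.052, ADAR 0.062, STAU2 0.052 and DHX9 0.059, and the filter at 50 counts gave TARBP2 0.0031. In MDA-MB-468, STAU2 was 0.00035 with RLE, 0.042 with library size only, 0.00028 in DESeq2, 0.0015 with that filter and 0.0098 alone. EIF2AK2 there was 0.00020, 0.045, 0.00017, 0.0037 and 0.012 in the same order. TNRC6C came to 0.038 with library size only and 0.0040 alone, ILF2 to 0.036 and 0.0029, and MX1 to 0.012 with library size only. The difference between lines with library size only was -0.00021 for ADAR and -0.010 for STAU2. In control cells ADARB1 was -0.060 with library size only and -0.12 with the filter. Leaving out 1 library gave these ranges in HCC1806: TARBP2 -0.090 to 0.023, ADARB1 -0.10 to 0.21, DHX9 -0.32 to 0.076, STRBP -0.037 to 0.12, UPF1 -0.13 to 0.13 and MIR4435-2HG -0.038 to 0.13. In MDA-MB-468 they were TARBP2 -0.23 to 0.035, ADAR -0.018 to 0.063, STAU2 -0.099 to 0.099, EIF2AK2 -0.070 to 0.047, TNRC6C -0.025 to 0.0025, OASL -0.56 to 0.26, UPF3B -0.048 to 0.062, ILF2 -0.089 to 0.059, RSAD2 -0.039 to 0.12, MX1 -0.11 to 0.0049, MIR22HG -0.053 to 0.14 and MIR29B2CHG -0.25 to 0.060. For the difference between lines they were TARBP2 -0.21 to 0.063, ADARB1 -0.26 to 0.048, STAU2 -0.017 to 0.18 and DHX9 -0.012 to 0.39. Of all genes, 314 rose and 358 fell in HCC1806, against 472 and 626 in DESeq2, 577 and 774 with no filter, 647 and 146 with library size only, 65 and 9 with the line alone, 110 and 50 at a threshold of 0.01, and 702 and 1245 with the replicate block, under which PRKRA was again the only one of the 9 to pass. Without 1 library these counts ran from 179 to 597 and from 122 to 1195. In MDA-MB-468, 46 rose and 0 fell, against 259 and 64 with the line alone, 100 and 11 in DESeq2 and 127 and 16 with no filter, and 19 to 93 and 0 to 5 without 1 library. For the difference between lines, 6 genes were higher and 27 lower, against 63 and 93 in DESeq2, 115 and 160 with no filter, 143 and 128 with the replicate block and 0 and 9 at a threshold of 0.01. Between control cells 10827 genes were lower, against 6586 with the filter at 50 counts. Same-numbered libraries of MDA-MB-468 correlated weakly, at 0.116, 0.0750 and 0.106, and differently numbered ones at 0.00375 or lower. Whether the numbers pair libraries there was not settled. The block gave 96 and 6 genes in that line and 0 of the 9. The cause of these changes was not tested. With 3 libraries a group, changes of the other 8 genes smaller than the intervals given were not detectable.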
